A study of Homo sapiens with 4 samples.

Results

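Genes of the ATF4 pathway and the cytosolic aminoacyl-tRNA synthetases were followed in KM-H2 cells after knockdown of the tyrosine phosphatase gene PTPN1. KM-H2 is an established cell line derived from Hodgkin lymphoma. The list holds 41 genes: 19 cytosolic synthetases, 5 transcription factors, 7 stress-response and other ATF4 target genes, 5 enzymes of serine and one-carbon metabolism and 5 amino acid transporters. Of these, 39 of the 19775 genes compared could be measured. The probe sets of the synthetase genes MARS1 and QARS1 are each annotated to more than 1 gene, so these members are not analysed here. The brightest probe set stood for each member, on the log2 scale of the RMA values.

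The series has 4 arrays of total RNA, 2 from KM-H2 cells carrying a non-silencing control and 2 from KM-H2 cells with the PTPN1 knockdown, all grown under the same standard conditions. The arrays of a group are technical replicates of each other. SDs, SEs and p-values therefore measure the spread between preparations or arrays and not between cultures, and the number of arrays limits the precision. PTPN1 read 8.16 and 8.40 in the 2 controls and 7.00 and 7.36 after knockdown, so the groups did not overlap. All 10 markers fixed for Hodgkin cells, among them TNFRSF8 (CD30) and IRF4, lay above the median of all values, 5.11, in every array. Of the measured markers of lost B cell identity, 2 of 5 did so. Among markers of other cells, 4 of 6 for T cells, 2 of 6 for myeloid cells, 1 of 5 for fibroblasts and 2 of 5 for epithelial cells lay above it throughout.

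ATF4 is a basic leucine zipper transcription factor whose translation increases when kinases phosphorylate the initiation factor eIF2, as they do on amino acid shortage, unfolded protein in the endoplasmic reticulum, haem shortage or viral RNA. It activates genes for amino acid synthesis and uptake, for charging tRNAs and, under lasting stress, for cell death. Aminoacyl-tRNA synthetases join each amino acid to its tRNA and so supply the ribosome. Because ATF4 is controlled largely at translation, its messenger RNA level does not measure its activity.

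Many ATF4 targets carry the C/EBP-ATF response element, whose core was searched here as TGATGNAA on either strand. RefSeq promoter sequences of build GRCh38.p14, from 250 bases before to 50 bases after each transcript start, were matched for 35 of the 41 members. The members CHAC1, AARS1, IARS1, ASNS and CEBPG are shown as examples of a match that lies upstream of a listed transcript start, as it also did in GARS1 and SLC1A5, with the match in capitals. They are written 5′ to 3′ on the strand of the gene, where TTNCATCA is the core on the opposite strand.
ASNS, chr7:97872458-97872487, minus strand: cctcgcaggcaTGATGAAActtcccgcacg
CEBPG, chr19:33374060-33374089, plus strand: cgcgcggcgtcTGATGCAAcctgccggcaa
CHAC1, chr15:40953221-40953320, plus strand: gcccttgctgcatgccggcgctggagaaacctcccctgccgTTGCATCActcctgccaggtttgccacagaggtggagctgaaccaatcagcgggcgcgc
AARS1, chr16:70289637-70289736, minus strand: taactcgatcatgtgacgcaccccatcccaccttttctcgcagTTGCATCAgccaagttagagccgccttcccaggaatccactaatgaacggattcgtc
IARS1, chr9:92293698-92293797, minus strand: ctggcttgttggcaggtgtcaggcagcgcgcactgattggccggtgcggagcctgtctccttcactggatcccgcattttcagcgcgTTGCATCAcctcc

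Counted from the transcript start, the match began at base -68 in ASNS, -42 in CEBPG, -209 in CHAC1, -187 in AARS1 and -13 in IARS1. In all, 13 of the 35 members (37.1%) held the core in a promoter, against 4.46% of the 27305 genes in the table. Counted by promoter, these were 13 of 53 member promoters (24.5%) and 3.62% of 35116 promoters. The other members with a match were TARS1, GARS1, CARS1, SLC3A2, MARS1, SLC7A1, NARS1 and SLC1A5, in some of which it lay across or after the start. Many members were listed as ATF4 targets, so a share above that of all genes is not an independent finding. A match describes the letters in this window and is not a measured binding site. The members LARS1, PSPH, SHMT2, SLC7A11, VARS1 and YARS1 had no entry.

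Across the 39 measured members, 32 lay above 0 for knockdown minus non-silencing, against 48.2% of all genes and 51.3% of genes at or above the median signal. The median log2 difference was 0.11, against -0.0066 for all genes. No member passed the test: limma called 0 of 39 members and 0 of 19775 genes (0%) at an adjusted p under 0.05. At an unadjusted p under 0.05 there were 0 members and 2.57% of all genes, and every member had a limma adjusted p of 1. Both knockdown arrays lay above both non-silencing arrays for 9 members, against 12.4% of all genes, and below them for 1 member, against 15% of all genes. The count above 0 was 20 of 39, with a median of 0.018, when knockdown array 1 was left out, and 28 to 35 when any other array was left out. For 26 of the 39 members the difference took both signs over the 4 fits that left out 1 array, among them 10 of the 17 measured synthetases.

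Most synthetases lay slightly above 0. Of 17 measured, 15 were above 0, with a median of 0.10 and a range from -0.14 to 0.40. Both knockdown arrays lay above both controls for 6 of the 17, against 12.4% of all genes. Among these, the log2 gap between the groups was 0.036 or less in HARS1, RARS1, KARS1 and SARS1. The median was 0.039 without non-silencing array 1 and 0.071 without knockdown array 1, with 12 of 17 above 0 in both cases. YARS1, the tyrosyl-tRNA synthetase, stood highest. It read 10.06 and 10.30 in the 2 controls and 10.70 and 10.46 after knockdown, a log2 difference of 0.40 (SE 0.16) or 1.32-fold. Both knockdown values were above both controls, with knockdown array 1 the highest. A second, dimmer YARS1 probe set read 5.93 and 6.34 against 6.31 and 6.11, so its groups overlapped. It differed by 0.08, with 0.39 in number 1 and -0.23 in number 2.

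GARS1, the glycyl-tRNA synthetase of cytosol and mitochondria, read 10.98 and 11.03 in the 2 controls and 11.47 and 11.22 after knockdown. Its controls were nearly equal, and its difference of 0.34 (SE 0.14, log2) was 0.49 in number 1 and 0.19 in number 2. Leaving out any 1 array gave differences from 0.22 to 0.46 for GARS1 and from 0.28 to 0.52 for the brightest YARS1 probe set.

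SARS1, which charges serine tRNAs, read 9.45 and 9.56 in the 2 controls and 9.77 and 9.56 after knockdown. Its groups are counted among those that do not overlap, but their nearest arrays, both numbered 2, were 0.001 apart on the log2 scale, so its mean log2 difference of 0.16 came from the arrays numbered 1. HARS1, the histidyl enzyme, read 10.53 and 10.66 against 10.69 and 10.70, with a log2 difference of 0.10. RARS1, the arginyl enzyme, read 8.47 and 8.60 against 8.63 and 8.62, with a log2 difference of 0.09. On the log2 scale the groups were apart by 0.04 in HARS1 and 0.02 in RARS1. KARS1, the lysyl enzyme, was flat at 13.32 and 13.33 against 13.35 and 13.34, although it too is counted as non-overlapping, with the groups apart by 0.01.

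CARS1, the cysteinyl-tRNA synthetase, showed another arrangement, in which 1 control array stood apart from the other 3 arrays. Its brightest probe set read 11.48 and 11.90 in the 2 controls and 11.92 and 11.86 after knockdown. The 3 other CARS1 probe sets differed by 0.54, 0.61 and 0.45 in number 1 and by 0.02, 0.01 and 0.11 in number 2. The difference was thus larger in number 1 in every probe set, and that of the brightest was -0.01 without non-silencing array 1.

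For the valyl and tryptophanyl enzymes, VARS1 and WARS1, the groups overlapped. VARS1 read 8.54 and 7.74 in the 2 controls and 8.66 and 8.13 after knockdown. WARS1, which is also induced by interferon, read 9.44 and 9.10 against 9.78 and 9.19. In both genes the arrays numbered 1 were the brighter ones whatever the group. The second VARS1 probe set differed by -0.13, against 0.26 for the brightest. The VARS1 difference was -0.14 without non-silencing array 2, and that of WARS1 was -0.08 without knockdown array 1.

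LARS1, the leucyl enzyme, and FARSB, a subunit of the phenylalanyl enzyme, were the 2 measured synthetases below 0. LARS1 read 10.44 and 10.74 in the 2 controls and 10.19 and 10.71 after knockdown, a log2 difference of -0.14 (SE 0.22) that was 0.12 without knockdown array 1. Of its other probe sets, a pair gave -0.13 and -0.10, whereas the dimmest gave 0.38. FARSB differed by -0.03, its dimmer probe sets by -0.30 and -0.04, and its partner subunit FARSA by 0.07. The alanyl, isoleucyl, asparaginyl, threonyl and glutamyl-prolyl enzymes AARS1, IARS1, NARS1, TARS1 and EPRS1 lay between 0.05 and 0.12.

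Several cytosolic synthetases are held in a multi-synthetase complex with scaffold proteins, and the members were sorted by this after their values were seen. The 5 measured enzymes of the complex (EPRS1, IARS1, KARS1, LARS1 and RARS1) had a median log2 difference of 0.051 and a range from -0.14 to 0.10. The 12 enzymes outside it had a median of 0.14, with 11 above 0. Without knockdown array 1 the order turned, with a median of 0.087 and 5 of 5 above 0 in the complex, and 0.062 and 7 of 12 outside it. Over all 4 fits that left out 1 array, the medians ran from 0.014 to 0.087 in the complex and from 0.062 to 0.246 outside it. The scaffold gene AIMP1 differed by 0.0070.

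**Figure D1:**
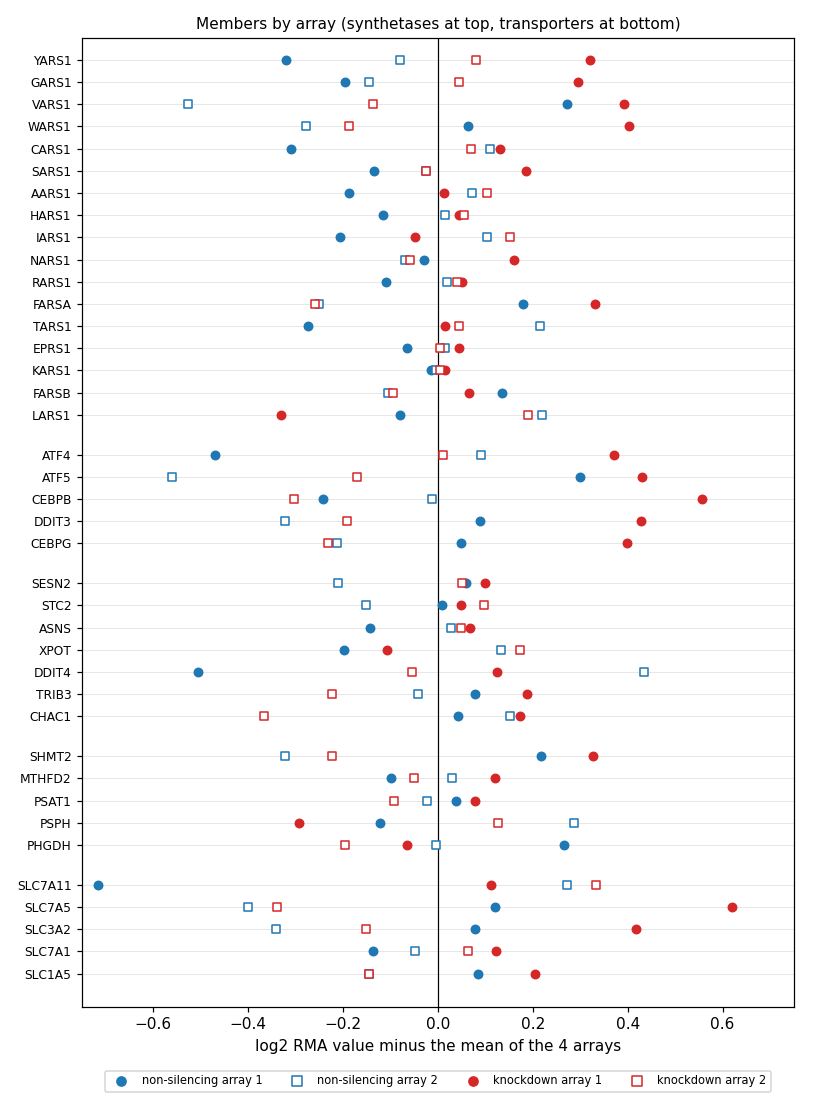
Log2 RMA value of each measured member in each array, minus that member's mean over the 4 arrays; blue marks non-silencing, red knockdown, filled circles number 1 and open squares number 2. Knockdown array 1 (filled red) is the highest of the 4 for 27 of 39 members, and non-silencing array 1 (filled blue) the lowest for 18.

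All 5 transcription factors lay above 0, with a median log2 difference of 0.25, but in each the groups overlapped. Without knockdown array 1 the median was -0.071 and 1 of 5 lay above 0. ATF4 itself read 10.77 and 11.33 in the 2 controls and 11.61 and 11.25 after knockdown. Knockdown array 1 was highest and non-silencing array 1 lowest, with both arrays numbered 2 between them. The difference of 0.38 (SE 0.24) therefore averages 0.84 and -0.08 within the array numbers.

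ATF5, a relative that is likewise induced through eIF2, read 8.91 and 8.05 against 9.04 and 8.44, a log2 difference of 0.26 (SE 0.35). Its 3 other probe sets differed by 0.12, 0.04 and 0.08. DDIT3, which encodes the stress factor CHOP, read 7.68 and 7.27 against 8.02 and 7.40, a log2 difference of 0.24 (SE 0.26). In both genes each knockdown array lay above the control of its number, while the numbers lay farther apart than the groups. Without knockdown array 1 the differences were -0.04 for ATF5 and -0.07 for DDIT3, and without non-silencing array 2 ATF5 was -0.17.

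CEBPB and CEBPG encode zipper proteins that can pair with ATF4. CEBPB read 8.31 and 8.54 in the 2 controls and 9.11 and 8.25 after knockdown, so that only knockdown array 1 was high. Its log2 difference was 0.79 in number 1 and -0.29 in number 2, and -0.18 without knockdown array 1. CEBPG read 9.19 and 8.93 against 9.54 and 8.91, with 0.35 and -0.02 within the numbers and -0.15 without knockdown array 1.

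**Figure D2:**
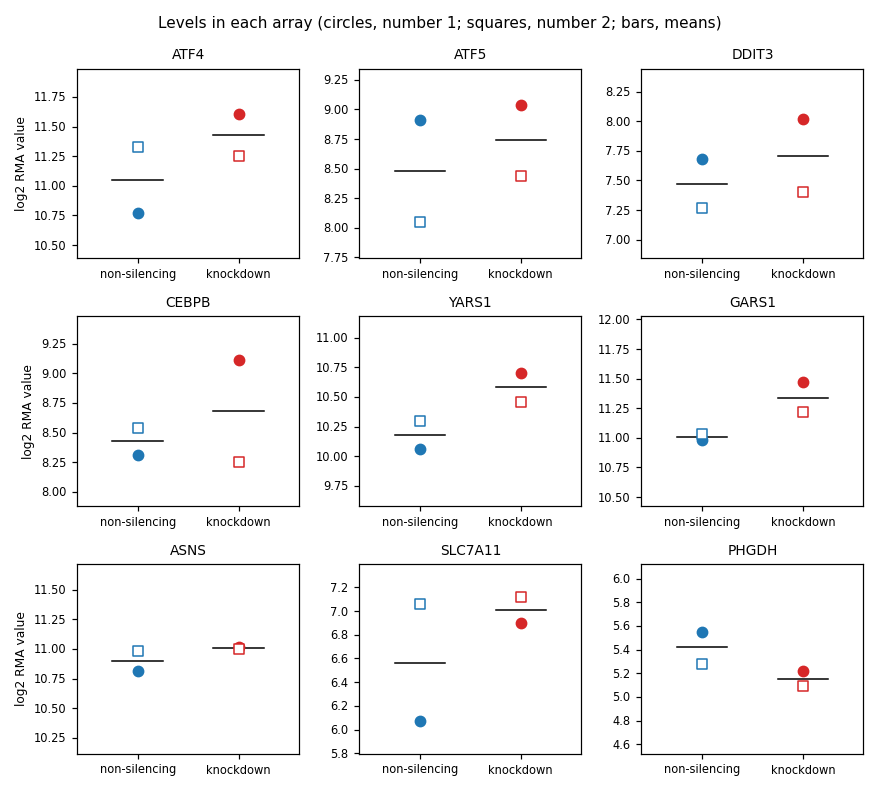
Log2 RMA values of 9 members in the 4 arrays (circles, number 1; squares, number 2), with group means as bars; every panel spans the same log2 range. The groups are apart for YARS1, GARS1, ASNS and PHGDH and overlap for ATF4, ATF5, DDIT3, CEBPB and SLC7A11.

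Stress-response and other ATF4 targets gave a median log2 difference of 0.071, with 5 of 7 above 0, and medians of 0.028 without non-silencing array 1 and 0.12 without knockdown array 2. ASNS, the asparagine synthetase and a classical target of ATF4, read 10.81 and 10.98 in the 2 controls and 11.02 and 11.00 after knockdown. Its groups were apart by 0.02 (log2), and its log2 difference was 0.11 (SE 0.13), while a second probe set far below the median signal differed by -0.14. TRIB3, a pseudokinase induced by ATF4 and CHOP, read 8.66 and 8.54 against 8.77 and 8.36, a log2 difference of -0.03 (SE 0.18). CHAC1, which degrades glutathione and responds strongly to ATF4, read 5.23 and 5.34 against 5.36 and 4.82, a log2 difference of -0.20 (SE 0.21). TRIB3 and CHAC1, both downstream of ATF4, lay below 0 by less than these SEs, and their groups overlapped. With the array number as a term of the fit, the SE was 0.12 for TRIB3 and 0.17 for CHAC1. The CHAC1 difference then exceeded its SE, at an unadjusted limma p of 0.281. CHAC1 had a signal close to the median of all values, 5.11, with knockdown array 2 below it. CHAC1 stood at 0.07 without knockdown array 2, and TRIB3 at 0.03 without non-silencing array 1 and 0.17 without knockdown array 2.

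DDIT4, an inhibitor of the growth kinase mTORC1 also known as REDD1, had the widest control spread among these genes. It read 10.28 and 11.22 in the 2 controls and 10.91 and 10.73 after knockdown, which lay between the controls. Its log2 difference was 0.63 in number 1 and -0.49 in number 2, and -0.40 without non-silencing array 1. SESN2, a leucine sensor that also restrains mTORC1, differed by 0.15, and XPOT, the exporter of tRNAs from the nucleus, by 0.07. STC2, which encodes a secreted glycoprotein, read 4.63 and 4.47 against 4.67 and 4.72. It was the 1 member whose control mean lay below the median signal, and its second probe set differed by -0.08.

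Serine and one-carbon enzymes had a median log2 difference of -0.015, and 3 of 5 lay below 0. PHGDH, the first enzyme of serine synthesis, read 5.55 and 5.28 in the 2 controls and 5.22 and 5.09 after knockdown, a log2 difference of -0.26 (SE 0.15). That difference was -0.13 without non-silencing array 1 and -0.40 without non-silencing array 2. PHGDH was the 1 member with both knockdown arrays below both controls, at a signal close to the median of all values. PSAT1, the next enzyme, read 10.93 and 10.87 against 10.97 and 10.80, with a log2 difference of -0.01. PSPH, the last enzyme, differed by -0.17 in both array numbers, reading 10.41 and 10.82 against 10.24 and 10.66. In the mitochondrial folate pathway SHMT2 differed by 0.11 and MTHFD2 by 0.07.

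All 5 amino acid transporters lay above 0 between the arrays of each number, and their median log2 difference was 0.26. Without knockdown array 1 that median was -0.023, with 2 of 5 above 0. SLC7A11, the cystine importer that supports glutathione synthesis, had the largest difference of any member, and it is described although its groups overlapped. It read 6.07 and 7.06 in the 2 controls and 6.90 and 7.12 after knockdown, so that non-silencing array 1 stood apart from the other 3. The difference of 0.45 (SE 0.34) was 0.94 without non-silencing array 2 and -0.05 without non-silencing array 1. A second SLC7A11 probe set read 5.31 and 5.95 against 6.37 and 6.48, with the groups apart and a log2 difference of 0.80, and the third differed by 0.29.

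SLC7A5 and SLC3A2 encode the light and heavy chains of the leucine transporter LAT1. SLC7A5 read 9.11 and 8.59 in the 2 controls and 9.61 and 8.65 after knockdown, a log2 difference of 0.28 (SE 0.37). SLC3A2 read 8.10 and 7.68 against 8.44 and 7.87, a log2 difference of 0.26 (SE 0.25). In both chains knockdown array 1 was highest and non-silencing array 2 lowest, so the groups overlapped, and without knockdown array 1 they stood at -0.20 and -0.02. SLC7A1, the importer of arginine and lysine, read 10.20 and 10.29 against 10.46 and 10.40, with the groups apart and a log2 difference of 0.19 (SE 0.13). Its 4 other probe sets differed by 0.42, 0.34, -0.13 and 0.30. The glutamine importer SLC1A5 differed by 0.06.

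Between the arrays numbered 1, 35 of 39 members lay above 0, against 50.3% of all genes, and the median log2 difference was 0.16. Between the arrays numbered 2 these were 24 of 39, against 47.7% of all genes, and 0.017. Both differences lay above 0 for 23 members, against 27.8% of all genes, and 13 members had opposite signs, against 42.4%. The gap was widest for the transcription factors, with medians of 0.35 and -0.018, and for the transporters, with 0.33 and 0.067. The synthetases gave 0.16 and 0.017. With 1 array of each group and number, whether the knockdown difference itself changed between the numbers could not be tested against any spread.

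**Figure D3:**
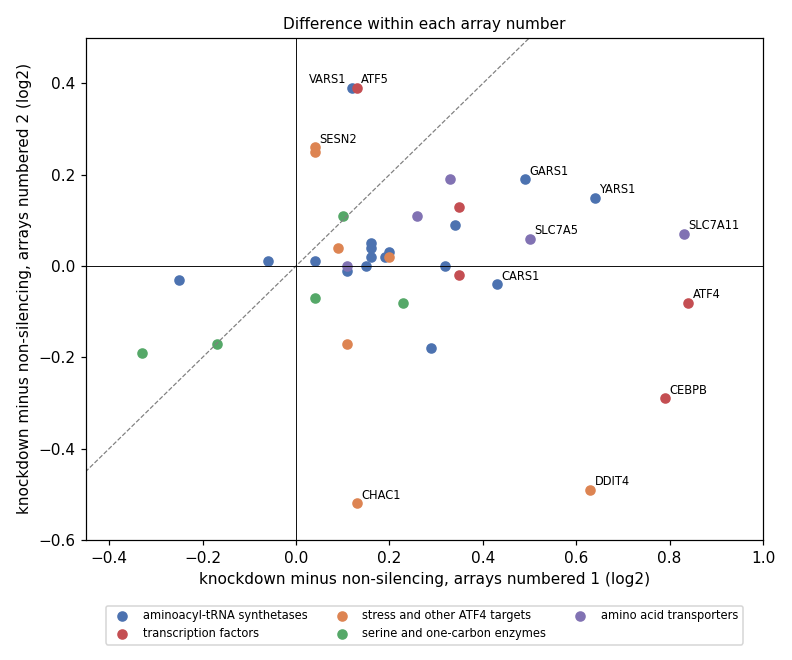
Log2 difference, knockdown minus non-silencing, of each measured member between the arrays numbered 1 (horizontal) and those numbered 2 (vertical); the dashed line marks equal differences. ATF4 (0.84 and -0.08), CEBPB (0.79 and -0.29) and SLC7A11 (0.83 and 0.07) lie far to the right, while VARS1 and ATF5 (0.39) are the highest on the vertical axis.

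Knockdown array 1 was the highest of the 4 arrays for 27 of 39 members, against 30.5% of all genes, and non-silencing array 1 was the lowest for 18, against 20.8%. Arrays of the same number shared part of the variation in both groups. With the group as a term of the fit, 7 of 39 members were lower in the arrays numbered 2 at a limma adjusted p under 0.05, against 4.45% of all genes, and 0 were higher, against 5.41%. Those 7 were ATF5, VARS1, SLC7A5, SHMT2, FARSA, SLC3A2 and DDIT3.

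ATF5 differed between the numbers by -0.73 (SE 0.11, limma adjusted p = 0.0228) and SLC7A5 by -0.74 (SE 0.14, limma adjusted p = 0.0313). VARS1 differed by -0.67 (limma adjusted p = 0.0272) and SHMT2 by -0.54 (limma adjusted p = 0.0316). FARSA, DDIT3 and SLC3A2 differed by -0.51, -0.51 and -0.49. For each of the 7 the arrays numbered 2 were lower in both groups, and the difference between numbers exceeded that between knockdown and control. ATF4 differed between the numbers by 0.10 (limma adjusted p = 0.817), being higher in number 2 among controls (0.56) and lower in number 2 among knockdown arrays (-0.36). The beta-actin control probe sets, whose 3′ minus 5′ log2 difference follows RNA integrity and amplification, gave 1.31 and 1.33 for number 1 but 0.972 and 0.969 for number 2. Those of GAPDH gave 0.319 and 0.293 for number 1 and 0.212 and 0.258 for number 2, a smaller gap. The part of RNA integrity and amplification in these differences was not tested.

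**Figure D4:**
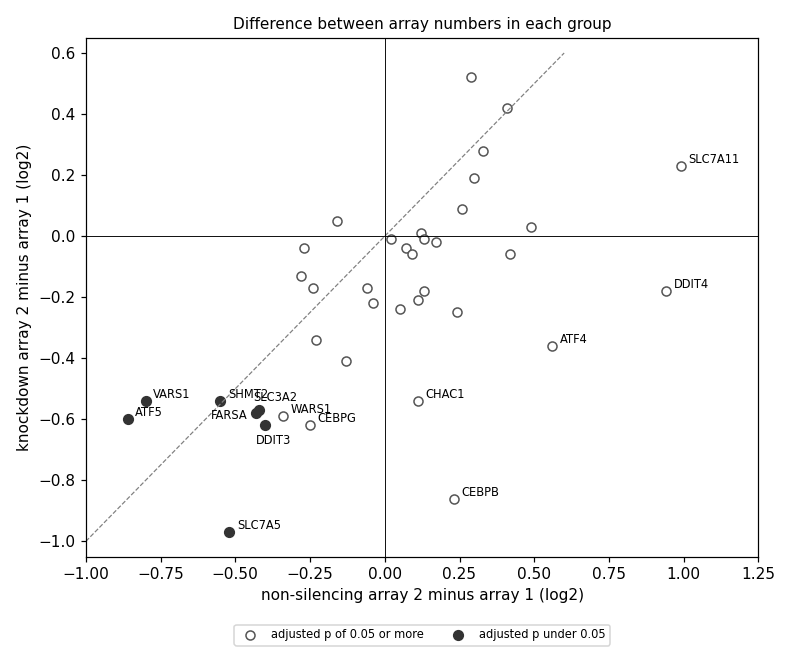
Log2 difference between array 2 and array 1 within the non-silencing group (horizontal) and within the knockdown group (vertical) for each measured member; filled points had a limma adjusted p under 0.05 and the dashed line marks equal differences. The 7 filled points lie at the lower left, and ATF4, CEBPB, DDIT4 and CHAC1 lie at the lower right, where the groups go opposite ways.

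Probe sets of the same member were compared for the 24 members that had several. Of 38 further probe sets, 31 had the sign of the brightest, and 26 of the 30 with at least median signal did. The 4 exceptions belonged to LARS1, PSAT1, SLC7A1 and VARS1. Every probe set lay above 0 in CARS1, SARS1, WARS1, SESN2, SHMT2 and SLC7A11, among others. Every probe set lay below 0 in FARSB, PSPH and TRIB3, and the probe sets differed in sign in 7 members.

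**Figure D5:**
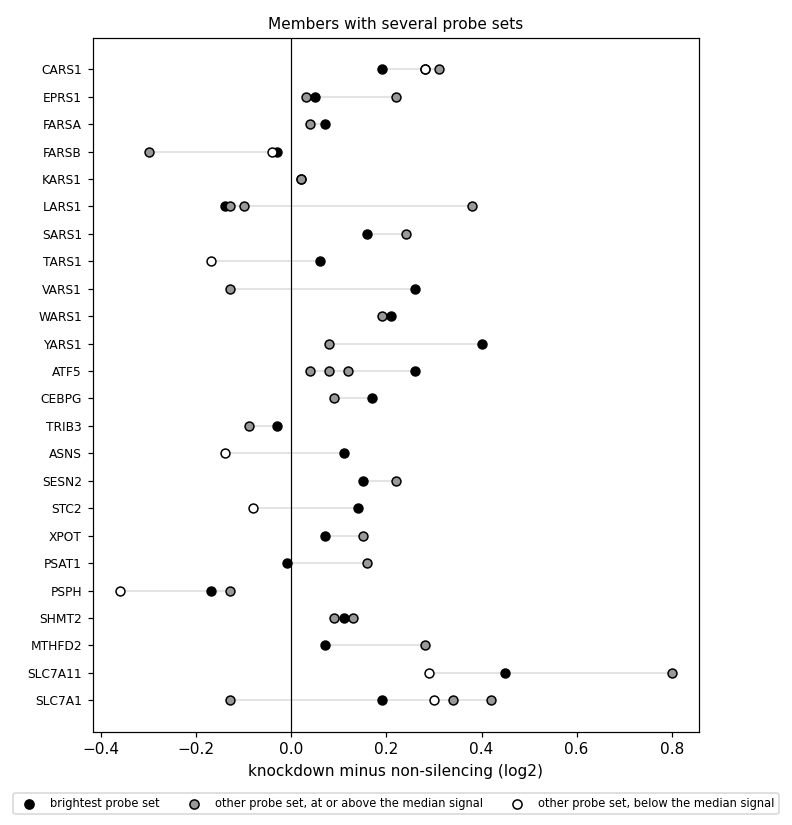
Log2 difference, knockdown minus non-silencing, for every probe set of the 24 members with several; black marks the brightest, grey the others at or above the median signal and white those below it. The probe sets of CARS1 lie together between 0.19 and 0.31, whereas those of LARS1 run from -0.14 to 0.38.

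Other genes around ATF4 were read from lists outside the members, and limma called 0 genes in any of them. At an unadjusted limma p under 0.05 there was 1 of the 13 other transporters, against 2.57% of all genes. Of the mitochondrial synthetases, which serve the organelle's own ribosomes, 10 of 15 measured lay above 0 with a median log2 difference of 0.083, from -0.33 for FARS2 to 0.29 for EARS2. Leaving out knockdown array 1 gave a median of 0.031 and leaving out array 2 gave 0.135, while leaving out non-silencing array 1 or 2 gave 0.136 or 0.003. Of the eIF2 kinases, the eIF2 alpha subunit and the phosphatase subunits, 2 of 8 lay above 0, with a median of -0.042. Without knockdown array 1 the direction turned, with 6 of 8 above 0 and a median of 0.055, and the other 3 fits without 1 array gave medians from -0.109 to -0.005. These ran from -0.16 for the phosphatase gene PPP1CA to 0.09 for PPP1R15A (GADD34). Other folate and serine enzymes had 3 of 8 above 0 and a median of -0.081, from -0.27 for MTHFD2L to 0.27 for SHMT1. That median was -0.010 without knockdown array 1, -0.038 without non-silencing array 2 and 0.013 without non-silencing array 1. Other amino acid transporters had 7 of 13 above 0 and a median of 0.027, from -0.46 for SLC7A8 to 0.28 for SLC1A1. That median was -0.013 without knockdown array 1, -0.034 without non-silencing array 2 and 0.078 without non-silencing array 1.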

How the data were processed

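Biotinylated cRNA was made from total RNA with 2 cycles of amplification, per the labels' protocols. The authors deposited log2 values computed by RMA, as the submitters' processing notes state, with software that is not given in the sources used here. The method equalises the distributions of arrays, so a change in total RNA cannot be seen, and it compresses differences at low signal.

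Of 54675 probe sets, 41097 had 1 gene symbol in the platform table and were named through RefSeq (GRCh38.p14). Groups and array numbers came from the titles. The knockdown effect was fitted in R 4.3.3 with limma 3.58.1 (lmFit, eBayes, two-sided, Benjamini-Hochberg over 19775 genes, threshold 0.05), without covariates. Array numbers were compared with the group as a term. The code was tested on simulated data. Members, lists and tests were chosen with earlier results of these data known. ATF4, ATF5, DDIT3, TRIB3, ASNS and CHAC1 were always described, as were members with the groups apart and those with opposite signs over 0.5 apart within the array numbers. Of every other list the highest and lowest genes were named. Further members were named after their values were seen. Alternatives covered normalization, probe sets, dim genes, variance models, a replicate block and leaving out each array.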

Additional observations from a re-analysis of the deposited data

How the results depend on the processing

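No member was called for knockdown against non-silencing under any alternative run. Over all genes the call count moved from 0 to 72 with the replicate block, to 3 with trend and robust variances and to between 0 and 1 when an array was left out. With the block 0 members passed, 4 (GARS1, YARS1, PHGDH and SLC3A2) had an unadjusted limma p under 0.05, against 10.3% of all genes, and the lowest limma adjusted p was 0.421. Deviations of same-numbered arrays from their group means correlated at 0.648 across genes, but no label says that a number marks a batch. With plain _at probe sets the median of stress and other targets was -0.032, and ASNS and STC2 were -0.14 and -0.08. Members with the groups apart then numbered 6, and the share of all genes under that setting is not given here. The same holds for the counts of groups apart below, with 1 array left out. Averaging all probe sets, ASNS was -0.02. Restricted to brighter genes (median signal or higher), 11 members were called between array numbers. No share of all genes is given for that setting, so this count is not read as particular to the members. Leaving out 1 array gave medians from -0.071 to 0.56 for transcription factors, from -0.023 to 0.33 for transporters, from 0.028 to 0.12 for stress and other targets, from -0.102 to 0.073 for serine enzymes and from 0.018 to 0.17 for all members, from 20 to 35 members above 0, and from 20 to 32 with the groups apart, where fewer arrays make separation easier. The same fits gave ATF5 from -0.17 to 0.69, CEBPB from -0.18 to 0.68, CHAC1 from -0.47 to 0.07, DDIT3 from -0.07 to 0.55, DDIT4 from -0.40 to 0.54 and TRIB3 from -0.24 to 0.17. A lone array is assumed there to vary like the other group. Apart from these, the cause was not tested.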

Other observations

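Among 22 further genes known as ATF4 targets, 14 lay above 0, with a median log2 difference of 0.078, which was 0.009 without knockdown array 1 and 0.039 without non-silencing array 2. Limma called 0 of them, with 1 at an unadjusted p under 0.05, against 2.57% of all genes. CTH, which makes cysteine from cystathionine, stood highest. It read 4.49 and 5.34 in the 2 controls and 6.26 and 5.46 after knockdown, a log2 difference of 0.94 (SE 0.39, limma adjusted p of 1), split into 1.77 and 0.11 by array number and from 0.51 to 1.37 when 1 array was left out. Its groups were apart, with knockdown array 1 far above the other 3 arrays. GDF15, a secreted stress cytokine named after its values were seen, was the 1 gene with an unadjusted limma p under 0.05. It read 5.01 and 5.04 against 6.10 and 5.54, with the groups apart. The GDF15 log2 difference of 0.795 (SE 0.21) was 1.09 in number 1 and 0.50 in number 2. It ran from 0.52 to 1.07 when 1 array was left out. CBS, the enzyme before CTH in the same route, stood lowest at -0.24, with both knockdown arrays lower but the groups only 0.003 apart, and from -0.37 to -0.10 when 1 array was left out.

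Measured members with the searched core in a promoter numbered 12, of which 11 lay above 0 with a median log2 difference of 0.11. The 21 measured members with a promoter entry and no match had 17 above 0 and a median of 0.091.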
